A study of Mus musculus with 96 samples.

Results

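The Kcnh genes encode the ether-a-go-go group of voltage-gated potassium channels, and all 8 members, Kcnh1 to Kcnh8, were followed here across 3 brain regions, 2 time points and 4 groups of mice. They are the 8 rows, of 32594 genes counted, whose symbol names a Kcnh gene. The family was picked because the level of Kcnh7 moved in opposite directions with the drug in sham and in injured hippocampus. The members were thus selected on hippocampal Kcnh7 values, but that reason names no time point. It was read as 3 days post-injury (dpi), where the shifts have opposite signs, and values at 29 dpi may have entered the choice as well. The drug and injury differences of hippocampal Kcnh7 are therefore given at both time points as a description with no test.

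The data are 96 bulk RNA-seq libraries from the ipsilateral hippocampus, thalamus and hypothalamus of male C57BL/6 mice aged 8 to 10 weeks, 48 from 3 dpi and 48 from 29 dpi, with 4 libraries per group. Injury (TBI) was a moderate controlled cortical impact, in which a piston strikes the cortex through an opening in the skull, and sham mice were anesthetized and had the scalp cut but kept the skull intact. Mice received vehicle (VH) or candesartan (CD), a blocker of the angiotensin AT1 receptor, at 0.1 mg/kg per day, which gives the vehicle groups Sham + VH and TBI + VH and the candesartan groups Sham + CD and TBI + CD. At 3 dpi the drug was injected intraperitoneally at 6, 24 and 48 h, whereas at 29 dpi an injection at 6 h was followed by an osmotic pump from 24 h, so route and time cannot be told apart. The study kept the 4 samples with the best RNA in each group, and the labels do not tie libraries of different regions to the same mouse.

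Kcnh channels are tetramers of subunits with 6 membrane-spanning helices each, and they open when the cell is depolarized. They fall into 3 subfamilies. EAG channels (Kcnh1, also called eag1, and Kcnh5, eag2) carry sustained outward currents. ERG channels (Kcnh2, erg1; Kcnh6, erg2; and Kcnh7, erg3) inactivate quickly, recover quickly when the cell repolarizes and then close slowly, which lets them restrain firing late in a burst, and human KCNH2 is the hERG channel of the heart. ELK channels (Kcnh8, Kcnh3, also called elk2, and Kcnh4) open at rather negative voltages and damp the excitability of neurons.

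The reading frame around the potassium selectivity filter is the part of the pore that the members share most visibly, and the stretches below are shown for the ERG genes and for the other 2 members on which the injury results turn. They are coding strand, 5′ to 3′, from the mm10 genome with the GENCODE vM21 annotation, and the capitals mark the 12 bases of the filter codons. The Kcnh7 stretch lies in exon 8 of 16 at chr2:62777307-62777381 on the minus strand, and the Kcnh2 stretch in exon 7 of 15 at chr5:24325519-24325593 on the minus strand. The Kcnh6 stretch lies in exon 6 of 13 at chr11:106019052-106019126 on the plus strand, the Kcnh1 stretch in exon 7 of 11 at chr1:192337730-192337804 on the plus strand, and the Kcnh4 stretch in exon 8 of 17 at chr11:100750257-100750331 on the minus strand.
Kcnh7: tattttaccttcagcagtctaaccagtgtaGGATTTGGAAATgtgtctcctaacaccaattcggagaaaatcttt
Kcnh2: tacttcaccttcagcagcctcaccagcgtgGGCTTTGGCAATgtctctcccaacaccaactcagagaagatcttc
Kcnh6: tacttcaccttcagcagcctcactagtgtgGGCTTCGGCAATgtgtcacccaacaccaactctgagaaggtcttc
Kcnh1: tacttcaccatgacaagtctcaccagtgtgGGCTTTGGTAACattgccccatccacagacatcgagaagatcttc
Kcnh4: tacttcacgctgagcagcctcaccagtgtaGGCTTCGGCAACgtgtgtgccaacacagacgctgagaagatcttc

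Over these 75 bases the 8 genes were 77.33% to 90.67% identical within a subfamily (7 pairs) and 64.0% to 82.67% between subfamilies (21 pairs). Kcnh2 and Kcnh6 were the closest pair, with 68 of 75 bases the same. Between whole transcripts the longest exact run shared by any pair was 41 bases, also in Kcnh2 and Kcnh6, which is shorter than the 75-base reads. An exon of Kcnh1 and of Kcnh7 overlaps a gene on the opposite strand (Hhat and Gca). The sources used here do not say whether counting used the strand, so a part of these genes' counts could belong to the neighbour. Kcnh3 meets Mcrs1, also on the opposite strand, only at its last base, chr15:99242817.

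Library totals ran from 6663629 to 38589791 counts. Markers of the labelled tissue were present in every library. In the hippocampus at 3 dpi the summed level of 6 hippocampal neuron markers was 564 to 941 CPM (counts scaled to a common library total, with TMM factors), against 150 to 190 in the thalamus and 147 to 178 in the hypothalamus. Some libraries carried neighbouring tissue. In the hippocampus at 3 dpi the sum of 8 choroid plexus epithelium markers was 6978, 4504, 213 and 4787 CPM in the Sham + VH libraries, 2753, 45.7, 21.7 and 170 CPM for TBI + CD, and 23.2 to 175 CPM in TBI + VH and Sham + CD. In other sets the highest sums of these markers were 7565 CPM in the hippocampus at 29 dpi (Sham + VH replicate 1), 3434 and 3784 CPM in the thalamus at 3 and 29 dpi (Sham + VH replicates 3 and 4), and 58.2 and 202 CPM in the hypothalamus. At 29 dpi the hippocampal library Sham + VH replicate 3 had 105 CPM of hypothalamic neurons markers, where the other 15 had at most 10.01.

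Levels of different genes were compared per kilobase of annotated exon, as means ± SD of 4 Sham + VH libraries at 3 dpi. In the hippocampus Kcnh3 was the most abundant member (21.1 ± 1.78 CPM per kb), ahead of Kcnh1 (10.05 ± 0.801) and Kcnh2 (8.39 ± 1.08). The other 5 were all below 1 CPM per kb, at 0.922 ± 0.214 for Kcnh4, 0.631 ± 0.157 for Kcnh5, 0.555 ± 0.0521 for Kcnh6, 0.390 ± 0.0722 for Kcnh7 and 0.101 ± 0.0291 for Kcnh8. Neighbours in this order from Kcnh1 to Kcnh2 and from Kcnh4 to Kcnh6 lay within the sum of their SDs. In Sham + VH replicate 3, the library of this group low in choroid plexus markers, Kcnh3, Kcnh1 and Kcnh2 stood in the same order (18.45, 8.852 and 6.96 CPM per kb), and Kcnh5 (0.8655) was above Kcnh4 (0.6773).

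In the thalamus the order was led by Kcnh2 at 24.9 ± 2.79 CPM per kb, with every other member between 0.455 (Kcnh4) and 2.66 (Kcnh1). In the hypothalamus Kcnh2 (19.9 ± 1.36) and Kcnh1 (7.31 ± 1.38) led, and Kcnh6 (2.15 ± 0.170) and Kcnh5 (1.93 ± 0.194) lay within the sum of their SDs of each other. Kcnh7 stood at 0.473 ± 0.127 CPM per kb in the thalamus and 0.415 ± 0.0313 in the hypothalamus. Its rank rests on its long annotated exons of 15226 bases. Per kilobase of coding sequence, a length chosen after the data were seen, hippocampal Kcnh7 was 1.65, above Kcnh4 at 1.19.

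**Figure D1:**
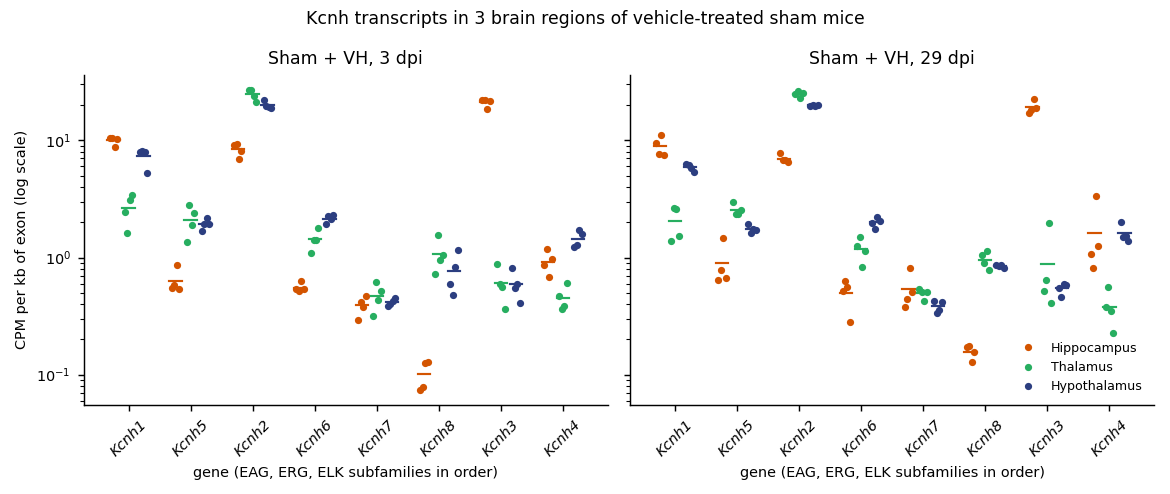
Level of each Kcnh gene in vehicle-treated sham mice at 3 dpi (left) and 29 dpi (right), in CPM per kilobase of exon on a log scale, with 1 point per library, a line at the mean of 4 and the regions in colour. Hippocampal Kcnh3 sits near 21.1 against about 0.601 in the thalamus, Kcnh2 is lower in the hippocampus than in the other regions, and at 3 dpi the Kcnh7 points of the 3 regions overlap.

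The question of how the family differs between regions was tested in Sham + VH libraries with edgeR's quasi-likelihood test over all 48 libraries of a time point, and a call needs a Benjamini-Hochberg adjusted p (FDR) below 0.05 together with a log2 fold change of more than 0.32 in either direction. Hippocampal Kcnh7 is left out of these counts. Between hippocampus and thalamus 7 of the 7 other members were called at 3 dpi (3 higher and 4 lower in the hippocampus), where 40.9% of 17788 genes were called, and 7 at 29 dpi, where 39.3% were. Between hippocampus and hypothalamus 7 of 7 were called at 3 dpi and 6 at 29 dpi, beside 46.7% and 45% of all genes. Between thalamus and hypothalamus 3 of 8 were called at 3 dpi and 5 at 29 dpi, beside 28.6% and 32.9%. Of 29 other voltage-gated potassium channel genes tested, from a list described below, 23, 24 and 21 were called in these comparisons at 3 dpi. At 29 dpi the counts were 22, 23 and 23.

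Each regional comparison was repeated without the libraries above 1000 CPM of choroid plexus markers, in settings added after the data were seen. Without the 4 hippocampal ones at 3 dpi (Sham + VH replicates 1, 2 and 4 and TBI + CD replicate 1), where Sham + VH replicate 3 is alone in its group and is assumed to vary like the others, 6 members were called against the thalamus beside 31.9% of all genes, and 6 against the hypothalamus beside 37.2%. The members that lost their call were Kcnh4 in the former and Kcnh1 in the latter. Without the thalamic ones as well, the same 6 were called in each, beside 31.6% and 37.5% of all genes. At 29 dpi, without the hippocampal and thalamic ones, 7 members were called against the thalamus beside 36.4% of all genes, and the same 6 as before against the hypothalamus beside 42.4%.

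Kcnh3 showed the widest regional difference. Its Sham + VH values at 3 dpi were 127, 128, 106 and 124 CPM in the hippocampus, 5.09, 3.43, 3.20 and 2.11 CPM in the thalamus, and 4.71, 3.17, 3.40 and 2.37 CPM in the hypothalamus. The hippocampal libraries did not overlap the others, and the log2 fold change was 5.13 ± 0.20 (SE) over the thalamus (FDR 1.99e-24, edgeR). At 29 dpi it was 4.50 ± 0.33 (FDR 2.86e-15). One thalamic library at 29 dpi, Sham + VH replicate 3, had 11.3 CPM of Kcnh3 where the other 3 had 2.37 to 3.70, and its hippocampal neurons markers summed to 240 CPM, the highest of the 16 thalamic libraries. Without it the log2 fold change at 29 dpi was 5.21 (FDR 3.61e-17), and without the choroid-rich libraries that at 3 dpi was 4.96 (FDR 6.09e-19).

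The EAG pair went opposite ways. Kcnh1 at 3 dpi was 1.92 ± 0.18 higher on the log2 scale in hippocampus than in thalamus (FDR 3.89e-12), whereas Kcnh5 was lower by a log2 fold change of -1.74 ± 0.19 (FDR 1.27e-10). At 29 dpi these log2 differences were 2.17 ± 0.19 and -1.47 ± 0.20. Against the hypothalamus at 3 dpi Kcnh1 was 0.46 ± 0.17 higher in the hippocampus (FDR 0.0186), and the call was lost without the hypothalamic library Sham + VH replicate 4 (0.33, FDR 0.107). Without the choroid-rich hippocampal libraries, which leaves Sham + VH replicate 3 alone in its group, it was 0.28. At 29 dpi Kcnh1 was also called higher in the hippocampus, and without hippocampal Sham + VH replicate 3 it was 0.50 (edgeR FDR 0.0196, called). Against the thalamus without the choroid-rich libraries, Kcnh1 was 1.75 (FDR 1.2e-06) and Kcnh5 was -1.27 (FDR 0.000475).

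Among the ERG genes, Kcnh2 and Kcnh6 were lower in the hippocampus than in the thalamus at 3 dpi, by log2 fold changes of -1.57 ± 0.09 and -1.37 ± 0.16. Without the choroid-rich libraries these were -1.82 (FDR 1.62e-13) and -1.16 (FDR 0.00031). At 29 dpi both were also lower, at -1.83 ± 0.08 and -1.21 ± 0.20, and at -1.83 and -1.31 without hippocampal Sham + VH replicate 3. Kcnh7 was not called between thalamus and hypothalamus, at 0.19 ± 0.20 at 3 dpi (FDR 0.484) and 0.37 ± 0.19 at 29 dpi (FDR 0.12). Since hippocampal Kcnh7 chose the family, its regional levels there are given with no test. At 29 dpi the log2 difference from the hypothalamus was 0.50 ± 0.20, with overlapping groups, and it was 0.20 without the hippocampal library Sham + VH replicate 3 and 0.80 without the choroid-rich libraries. At 3 dpi the Kcnh7 level of Sham + VH libraries spanned 4.50 to 7.11 CPM in the hippocampus, 4.85 to 9.39 in the thalamus and 5.84 to 6.91 in the hypothalamus.

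The other ELK genes also split. Kcnh8 was lower in the hippocampus, by -3.38 ± 0.31 against the thalamus at 3 dpi, and rested there on only 6 to 19 counts per library. Without the choroid-rich libraries it was -3.07 (FDR 2.11e-05). Kcnh4 was higher in the hippocampus than in the thalamus, by 1.02 ± 0.23 at 3 dpi and 2.21 ± 0.31 at 29 dpi. The latter includes Sham + VH replicate 3, the library with hypothalamic markers, which had 13.2 CPM where the other 3 libraries of its group had 3.19 to 4.94 CPM. Without that library the difference at 29 dpi was 1.497 (FDR 2.27e-05), and without the choroid-rich libraries the difference at 3 dpi was 0.59 (FDR 0.22, not called). Against the hypothalamus hippocampal Kcnh4 was lower at 3 dpi, by -0.65 ± 0.21 (FDR 0.00802), with groups that did not overlap, and by -1.09 (FDR 0.0163) without the choroid-rich libraries. At 29 dpi that difference was 0.08 ± 0.28 (FDR 0.841), and -0.60 (FDR 0.0531) without Sham + VH replicate 3.

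Kcnh7 in the hippocampus at 3 dpi is the pattern by which the family was chosen. The 4 libraries of Sham + VH held 4.50, 6.35, 5.80 and 7.11 CPM (mean 5.94 ± 1.099 SD), and those of Sham + CD held 6.39, 12.8, 11.8 and 11.5 CPM (10.6 ± 2.88). TBI + VH held 6.95, 7.36, 8.20 and 8.53 CPM (7.76 ± 0.728), and TBI + CD held 4.71, 4.37, 5.14 and 5.27 CPM (4.87 ± 0.411). In sham mice 3 of the 4 candesartan libraries lay above all vehicle libraries and replicate 1 lay among them. In injured mice every candesartan library lay below every vehicle library.

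On the log2 scale candesartan moved Kcnh7 by 0.83 ± 0.18 (SE) in sham and by -0.67 ± 0.18 in injured hippocampus, a difference between the drug effects of -1.497 ± 0.25. Read along the other axis of the same 16 libraries, injury moved it by 0.41 ± 0.18 in vehicle and by -1.09 ± 0.18 in candesartan mice. The counts behind these values ran from 96 to 297 per library. With the choroid plexus marker score as a covariate the drug effects were 0.86 and -0.68, and without the choroid-rich libraries 0.87 and -0.65. The sham value without those libraries rests on Sham + VH replicate 3 alone, and high scores coincided with the Sham + VH group. Both fits describe the values that chose the family and test nothing. Neuron markers, summed over 6 genes, also differed with the drug in sham mice, at 6083 to 6600 CPM in Sham + VH and 6629 to 7166 CPM in Sham + CD, with no overlap. Of the 14 marker lists, 2 others did not overlap between these groups, both lower with candesartan. They were choroid plexus epithelium, given above, and ependyma (25.4 to 40.7 CPM against 9.28 to 22.9 CPM). Glutamatergic neurons (1749 to 1979 against 1746 to 1985 CPM) and GABAergic neurons (506 to 559 against 541 to 571 CPM) overlapped. The part of the neuron and ependyma contents in the sham drug differences was not tested.

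**Figure D2:**
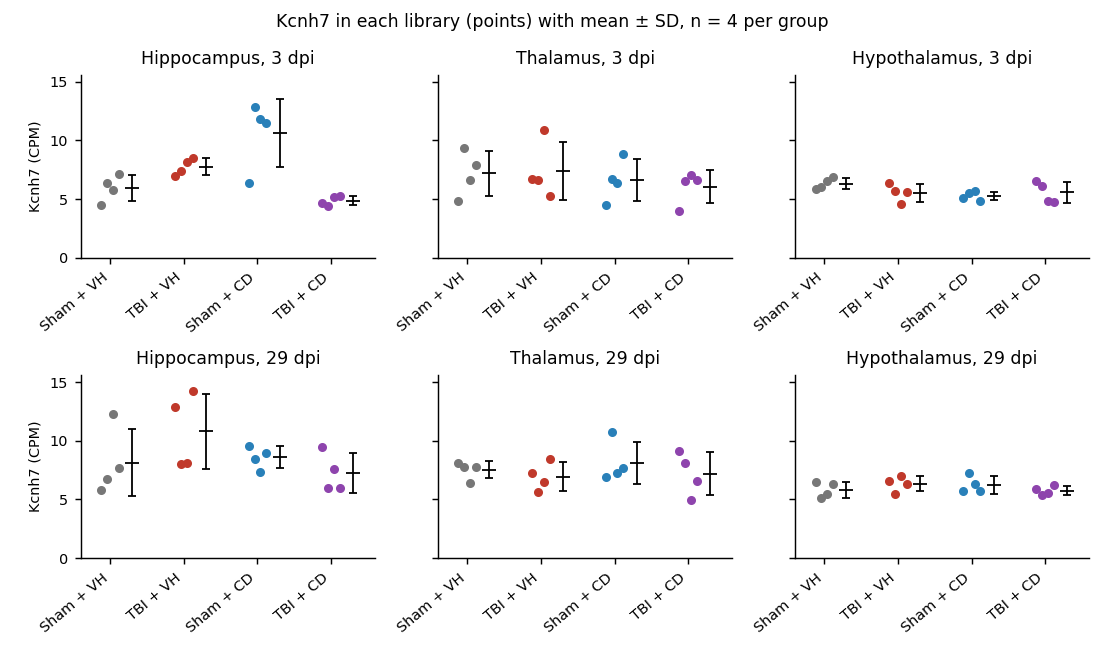
Kcnh7 level in CPM in each library (points) with mean ± SD of 4 for each group, by region (columns) and time point (rows), on 1 shared axis from 0. In the hippocampus at 3 dpi Sham + CD is the highest group and TBI + CD, at 4.37 to 5.27 CPM, the lowest, while in the thalamus and hypothalamus the groups lie among each other except for Sham + CD below Sham + VH in the hypothalamus at 3 dpi.

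In the hippocampus at 29 dpi TBI + VH held 12.8, 8.04, 8.10 and 14.2 CPM of Kcnh7 and TBI + CD held 9.502, 6.00, 7.55 and 5.96 CPM, with overlapping groups. The log2 drug difference in injured mice was -0.60 ± 0.23. In sham mice at 29 dpi, Sham + VH held 5.80, 6.77, 12.3 and 7.66 CPM and Sham + CD held 9.56, 8.41, 7.36 and 8.99 CPM, a log2 difference of 0.01 ± 0.24. The difference between the drug effects there was -0.62 ± 0.33. Sham + VH replicate 3, with 12.3 CPM, is the library with hypothalamic markers, and without it the sham drug difference was 0.33 and the difference between the drug effects -0.93. Without the 6 libraries above 1000 CPM of choroid plexus markers these were -0.20 and -0.63, and the drug difference in injured mice was -0.83.

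Whether Kcnh7 moved likewise in the other regions, which the choice did not use, was tested next. In the hypothalamus at 3 dpi the Sham + CD libraries (5.06, 5.49, 5.66 and 4.88 CPM) all lay below the Sham + VH libraries (5.84, 6.05, 6.50 and 6.91 CPM). The log2 fold change of -0.27 ± 0.12 had an unadjusted p of 0.0456 and an FDR of 1 in edgeR, and its sign is the opposite of that in sham hippocampus. In the thalamus at 3 dpi Kcnh7 spanned 4.85 to 9.39 CPM in Sham + VH and 4.49 to 8.86 CPM in Sham + CD, and in injured mice candesartan gave -0.28 ± 0.26 (FDR 1).

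The question of what injury did to the other 7 members was asked within each drug arm. In vehicle mice 2 of the 7, Kcnh1 and Kcnh2, fell in the hippocampus at 3 dpi, where 10.7% of 16756 genes were called (1507 higher and 289 lower). With the choroid plexus covariate described below these were -0.16 and -0.19, and neither was called. In candesartan mice 3 of the 7 members other than Kcnh7 were called, all lower (Kcnh1, Kcnh5 and Kcnh4), beside 20.1% of all genes (2410 higher and 950 lower). TBI + CD against Sham + VH, which shares its libraries with both arms, called Kcnh1 and Kcnh2 lower (-0.33 ± 0.11 and -0.40 ± 0.11), beside 12.1% (1719 higher and 311 lower). With the choroid plexus covariate Kcnh1 and Kcnh2 were -0.14 and -0.18, and neither was called. Without the choroid-rich libraries, which leaves Sham + VH replicate 3 alone in its group, they were -0.19 and -0.20. The Kcnh1 call there was lost when 1 of the Sham + VH libraries 1, 2 and 4 was left out, or 1 of the TBI + CD libraries 3 and 4 (FDR 0.0849 to 0.157), and the Kcnh2 call when Sham + VH library 1 or 2 was left out, or TBI + CD library 3 or 4 (FDR 0.052 to 0.0701). Averaged over both drug arms, injury called 2 of the 7 lower (Kcnh1 and Kcnh4), beside 15.8% of all genes (2229 higher and 414 lower). The median log2 fold change of the 7 in that average was -0.22, against -0.02 over all genes tested.

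Kcnh1 in Sham + VH stood at 76.8, 77.1, 64.9 and 75.8 CPM, and in TBI + VH at 49.1, 65.1, 50.7 and 55.7 CPM. It held 77.4, 69.8, 63.1 and 89.4 CPM in Sham + CD and 63.4, 62.4, 49.0 and 55.7 CPM in TBI + CD. The injured libraries were lower in both arms, with 1 library crossing in each. The log2 fold change was -0.40 ± 0.11 (FDR 0.016) in vehicle mice, -0.34 ± 0.11 (FDR 0.0184) in candesartan mice and -0.37 ± 0.07 (FDR 0.000889) in the average (edgeR). The vehicle call was lost without TBI + VH replicate 1 or 3 (FDR 0.0703 and 0.0676), and the candesartan call without Sham + CD replicate 4 or TBI + CD replicate 3 or 4 (FDR 0.0572 to 0.0939).

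Kcnh4, an ELK gene of low level here (42 to 114 counts per library), stood at 3.40, 4.71, 2.68 and 3.81 CPM in Sham + VH, and injured vehicle mice (TBI + VH) had 2.35, 2.79, 2.07 and 2.50 CPM. It held 5.61, 4.49, 3.03 and 4.82 CPM in Sham + CD and 2.06, 2.35, 2.89 and 2.41 CPM in TBI + CD. In candesartan mice the groups did not overlap, and in vehicle mice 1 sham library lay inside the injured range. Injury gave -0.84 ± 0.19 with candesartan (FDR 0.0029), -0.57 ± 0.20 with vehicle (FDR 0.0641, not called) and -0.71 ± 0.14 in the average (FDR 0.000652).

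Kcnh2, the most abundant ERG gene, reached 44.1, 45.3, 33.7 and 39.5 CPM in Sham + VH, while TBI + VH libraries had 25.9, 34.9, 25.6 and 29.6 CPM. Its candesartan values were 35.2, 31.3, 29.0 and 30.6 CPM in Sham + CD and 35.0, 32.0, 27.9 and 26.2 CPM in TBI + CD. Sham + VH stood above the other 3 groups except for replicate 3, and those 3 lay among each other. The injury difference was -0.47 ± 0.11 in vehicle mice (FDR 0.00663) and -0.02 ± 0.11 in candesartan mice (FDR 0.9). In vehicle mice it was -0.19 with the choroid plexus covariate (edgeR FDR 0.574, not called). Without the choroid-rich libraries, which leaves Sham + VH replicate 3 alone in its group, it was also -0.19. The difference between the vehicle and candesartan injury effects was 0.45 ± 0.16, with an unadjusted p of 0.0105 and an FDR of 0.21, so it did not pass. With the choroid plexus covariate it was 0.12 (FDR 0.893), and without the choroid-rich libraries 0.095.

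Kcnh5, at 28 to 85 counts per library, held 2.66, 3.41, 3.78 and 3.91 CPM in Sham + CD and 1.37, 3.07, 2.06 and 2.08 CPM in TBI + CD. Only replicate 2 of TBI + CD reached into the sham range. The candesartan-arm fold change of -0.64 ± 0.22 (FDR 0.0327) lost its call when any 1 of 6 of the 8 libraries was left out (FDR 0.0573 to 0.0978); the call held without Sham + CD replicate 1 or TBI + CD replicate 2. It was also lost without the choroid-rich libraries (-0.48, FDR 0.0914) and in a fit of only the 2 groups compared (-0.63, FDR 0.0595). In vehicle mice the difference was 0.19 ± 0.22 (FDR 0.65), and edgeR's test of the difference between the arms gave -0.83 ± 0.31 (unadjusted p of 0.0156, FDR 0.247). The latter became -0.27 (FDR 0.878) with the choroid plexus covariate. Without the choroid-rich libraries, which leaves Sham + VH replicate 3 alone in its group, it was -0.22.

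Kcnh3, Kcnh6 and Kcnh8 were not called. Averaged over the arms Kcnh3 was -0.16 ± 0.06 (FDR 0.0473), below the fold threshold, and Kcnh6 and Kcnh8 were -0.15 ± 0.14 and 0.21 ± 0.22.

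**Figure D3:**
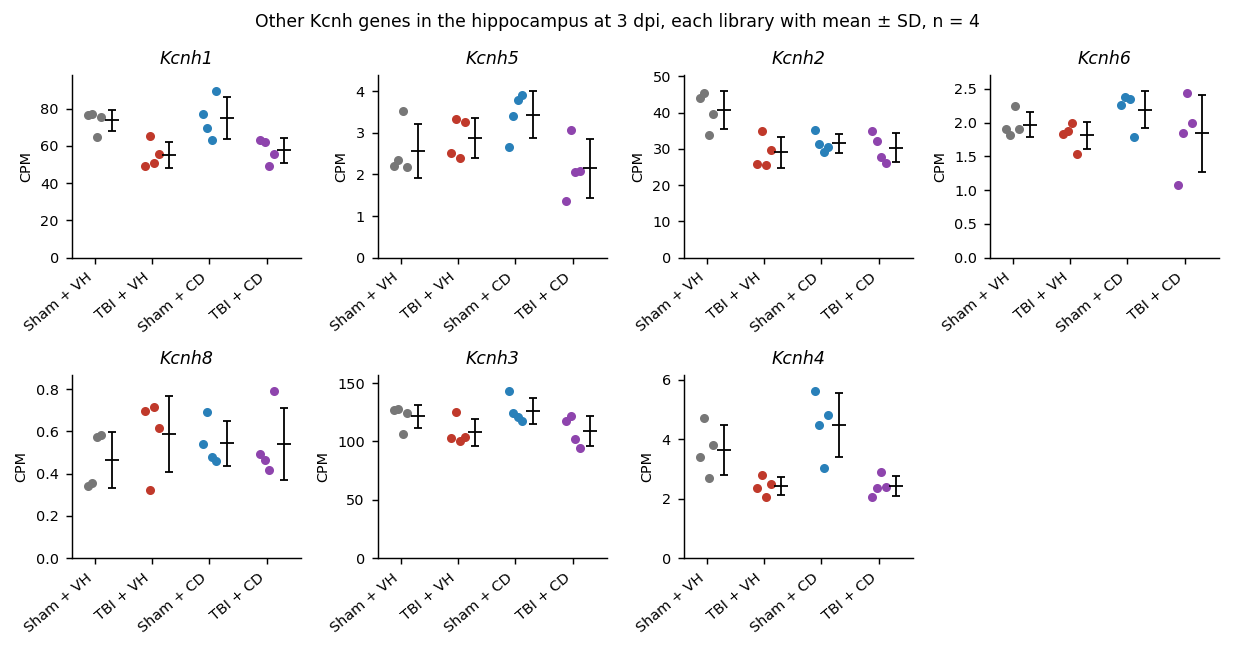
The 7 members other than Kcnh7 in the hippocampus at 3 dpi, each library in CPM (points) with mean ± SD of 4 per group, each panel on its own axis from 0. Kcnh1 and Kcnh4 are lower in both injured groups, Kcnh2 is highest in Sham + VH with 33.7 to 45.3 CPM, and Kcnh5 is lowest in TBI + CD.

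Sums of several cell type marker lists differed with injury in these libraries, and in bulk tissue fewer cells of a type and less RNA per cell cannot be told apart. The sum of 6 neuron markers had a median of 6204 CPM in Sham + VH, falling to 5575 CPM for TBI + VH, and a median of 6920 CPM in Sham + CD, falling to 5458 CPM for TBI + CD, with no overlap between sham and injured libraries of an arm. The microglia marker sums were 214 to 229 CPM in Sham + VH and 428 to 624 CPM in TBI + VH, and 212 to 244 CPM in Sham + CD and 504 to 700 CPM in TBI + CD, also with no overlap. The median astrocyte sums were 4002 and 9055 CPM in the vehicle groups and 4515 and 8806 in the candesartan groups. Of the 14 marker lists 6 did not overlap with injury in vehicle mice and 4 in candesartan mice. The others among them were GABAergic neurons, lower in both arms, and in vehicle mice choroid plexus epithelium and striatum, both lower (striatum 174 to 210 CPM in Sham + VH and 137 to 168 CPM in TBI + VH). Hippocampal neuron markers overlapped, at 746 to 807 CPM in Sham + VH and 739 to 835 CPM in TBI + VH. The part of the neuron, glial and striatum contents in the Kcnh injury differences was not tested.

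High choroid plexus content coincided with the Sham + VH group, so the parts of this content and of the group in the vehicle-arm differences cannot be told apart. With the marker score as a covariate 0 of the 7 members were called for injury in vehicle mice by edgeR, beside 3.7% of all genes in place of 10.7%, where 1 (Kcnh6) had an unadjusted p below 0.05, with Kcnh1 at -0.16 (FDR 0.659) and Kcnh2 at -0.19 (FDR 0.574). Without the 4 choroid-rich libraries Sham + VH replicate 3, which had the lowest Kcnh1 of its group (64.9 CPM), is alone in that group. Loss of a call there cannot be told apart from the loss of libraries, so only sizes are given for vehicle injury. Kcnh1 was -0.21 and Kcnh2 -0.19, and Kcnh4 went from -0.57 to -0.12. In candesartan mice Kcnh1 and Kcnh4 were called under both, at -0.38 and -0.85 with the covariate and -0.39 and -0.77 without those libraries, beside 20.3% and 18.5% of all genes. Kcnh5 there was called with the covariate (-0.59, FDR 0.025) and not without the libraries. In the average over the arms Kcnh4 was -0.70 (FDR 0.00625) with the covariate, and Kcnh1 was -0.27 (FDR 0.0138), below the fold threshold. Without the 4 libraries, where the average also rests on that lone Sham + VH library, they were -0.45 and -0.30. Kcnh5 in the average, -0.22 ± 0.15 without the covariate (FDR 0.278), was called with it (-0.46, FDR 0.0409). The all-gene share in the average was 14.4% with the covariate.

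**Figure D4:**
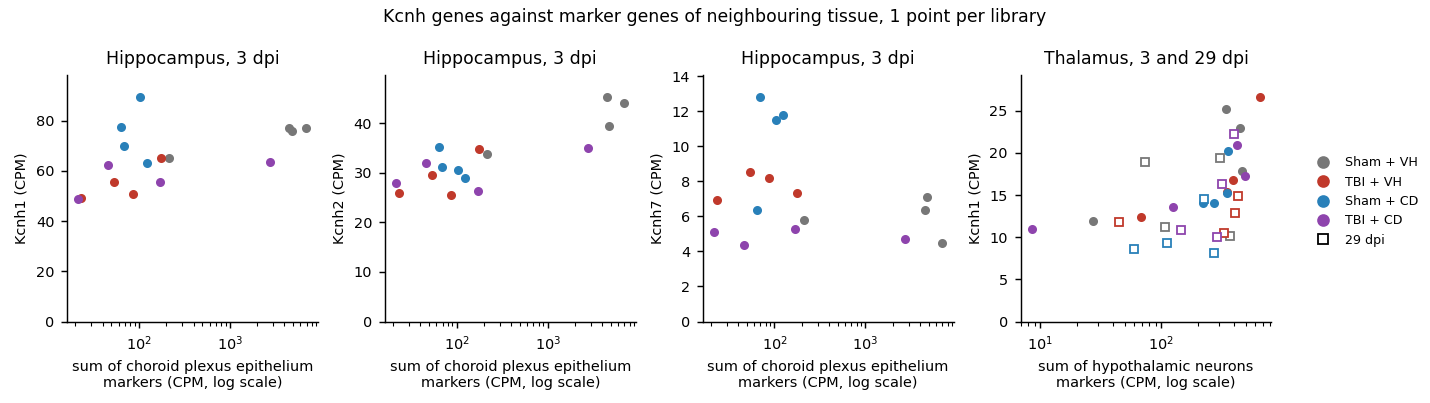
Each point is 1 library, with a Kcnh level in CPM against the summed markers of choroid plexus epithelium (first 3 panels, hippocampus at 3 dpi) or hypothalamic neurons (last panel, thalamus, squares for 29 dpi), in CPM on a log scale. The 3 Sham + VH libraries above 4503 CPM of choroid plexus markers have the highest Kcnh2 levels, 39.5 to 45.3 CPM. All Sham + CD libraries, which hold the highest Kcnh7 levels, have marker sums of 64.4 to 123 CPM.

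Candesartan in sham hippocampus at 3 dpi called 0 of the 7 members other than Kcnh7 by edgeR, beside 1.5% of all genes, and 1 of them, Kcnh2, had an unadjusted p below 0.05, as did 2511 of 16756 genes. Kcnh2 was -0.38 ± 0.11 with an FDR of 0.0894 by edgeR and was called by DESeq2. With the choroid plexus covariate Kcnh2 was -0.11 (FDR 0.833). Without the choroid-rich libraries, which leaves Sham + VH replicate 3 alone in its group, it was also -0.11. In injured hippocampus the drug called 0 of the 7 and 0 of 16756 genes (0%) by edgeR, although 732 genes had an unadjusted p below 0.05, and the count by DESeq2 was also 0. The study itself reported Kcnh7 as the only differentially expressed gene in its direct hippocampal comparison of TBI + CD with TBI + VH. The cause of this disagreement was not tested. The drug differences of the 7 in injured mice ran from -0.42 ± 0.22 (Kcnh5) to 0.06 ± 0.11 (Kcnh1). The interaction also called 0 of the 7 and 0% of all genes by edgeR, while Kcnh2, Kcnh5 and 2196 genes in all had an unadjusted p below 0.05. DESeq2 called 0 of the 7 for the interaction, among 322 genes.

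Outside the hippocampus no member was called for injury at 3 dpi. In the thalamus 0 of 8 were called in vehicle mice (0.298% of all genes) and 0 in candesartan mice (0.179%), with 0 at an unadjusted p under 0.05 in either. In the hypothalamus 0 of 8 members and 0% of genes were called in each arm. Candesartan called 0 members and 0% of genes in sham and in injured mice of both regions, and hypothalamic Kcnh7 in sham mice, given above, was the 1 member at an unadjusted p below 0.05. DESeq2 also called 0 members in each of these. The difference between regions was then tested directly, in a comparison added after the data were seen. Kcnh4 fell more with injury in the hippocampus than in the thalamus, by a log2 difference of -0.96 ± 0.24 (FDR 0.0032), and more than in the hypothalamus, by -0.74 ± 0.22 (FDR 0.0123). Without the choroid-rich hippocampal libraries, which leaves Sham + VH replicate 3 alone in its group, these differences were -0.71 and -0.50, and the calls cannot be judged. Without the choroid-rich thalamic libraries as well they were -0.68 and -0.51. With all libraries Kcnh4 was the single member called in each, of the 7 other than Kcnh7, beside 10.1% and 11.4% of 17788 genes. Kcnh2 differed from the thalamus by -0.27 ± 0.09 (FDR 0.0253), below the fold threshold, and Kcnh1 by -0.32 ± 0.18 (FDR 0.22).

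**Figure D5:**
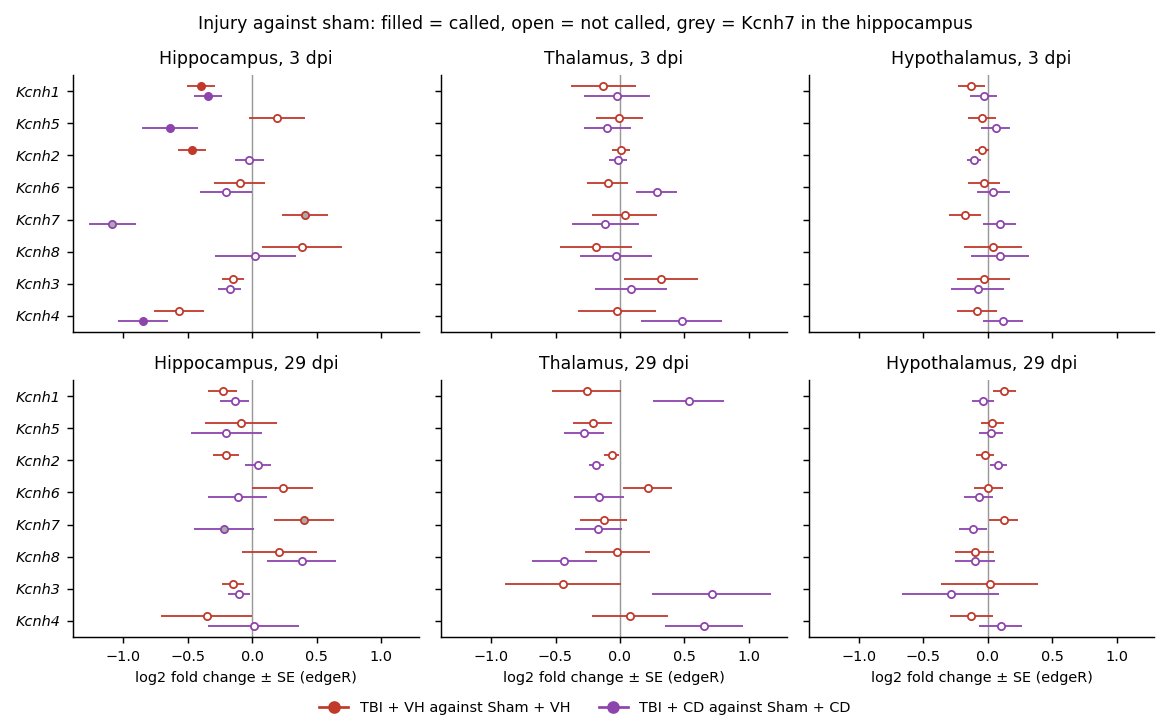
Log2 fold change of injury against sham ± SE (edgeR) for each member in the vehicle (red) and candesartan (purple) arms, by region and time point; filled points are called and grey marks Kcnh7 in the hippocampus, given without a test. Called members appear in the hippocampus at 3 dpi alone, where Kcnh4 in the candesartan arm lies at -0.84.

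At 29 dpi 0 members were called within any region by edgeR, and 0 by DESeq2, hippocampal Kcnh7 left out. The count was also 0 without the choroid-rich libraries of the hippocampus or the thalamus. In the hippocampus the share of all genes called was 0.529% for injury in vehicle mice, 0.356% for injury in candesartan mice, 0.119% for TBI + CD against Sham + VH and 1.62% for the average over the arms, and 0% for the drug in sham, the drug in injured mice and the interaction. Kcnh1 kept a negative sign there, at -0.18 ± 0.08 in the average by edgeR (unadjusted p of 0.0326, FDR 0.377), and Kcnh4 was -0.17 ± 0.25 (FDR 0.901). Without Sham + VH replicate 3 these were -0.12 (FDR 0.625) and 0.17 (FDR 0.855). In the hypothalamus 0.00583% of genes were called for injury in vehicle mice and 0% in the other 3 comparisons, and no member had an unadjusted p under 0.05.

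In the thalamus at 29 dpi 0% of genes were called in each comparison, and 2 members had an unadjusted p under 0.05, both for injury in candesartan mice. In that comparison 1549 of 16957 genes had an unadjusted p under 0.05. By edgeR, Kcnh2 was -0.18 ± 0.06 (unadjusted p of 0.00624, FDR 0.425), and Kcnh4 was 0.65 ± 0.30 (unadjusted p of 0.0481, FDR 0.543), with TBI + CD at 2.82, 1.59, 1.74 and 1.70 CPM above Sham + CD at 0.932, 1.46, 1.37 and 1.23 CPM. Thalamic libraries differed in their content of hypothalamic neurons markers, from 8.55 to 656 CPM at 3 dpi. Thalamic Kcnh1, a gene of higher level in the hypothalamus, was 10.997 CPM in the library with the lowest sum and 26.6 CPM in the library with the highest. The part of this in the spread of thalamic Kcnh1 was not tested.

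Other voltage-gated potassium channel genes were counted beside the family, from a list of 32 of which 29 were tested in the hippocampus at 3 dpi. With vehicle, injury called 1 of them beside 10.7% of all genes. This was Kcng4, which encodes a silent modifier subunit, higher by 0.52 ± 0.12 (FDR 0.00797). Kcng4 was not called with the choroid plexus covariate (0.42, FDR 0.256). Without the choroid-rich libraries, which leaves Sham + VH replicate 3 alone in its group, it was 0.26. With the covariate 1 other gene was called, Kcnq5, an M-current channel gene, at -0.37 (FDR 0.0305), and it was -0.35 without those libraries. Kcnq5 is named after its values were seen. With candesartan injury called 12 of the 29, of which 11 fell, beside 20.1% of all genes (2410 higher and 950 lower). The interaction, which tests the difference between the arms, called 0 of the 29 by edgeR. Among the 12, Kcng3, another silent subunit, fell by 1.12 ± 0.25 on the log2 scale (FDR 0.00203), and Kcnb2, a delayed rectifier, fell by 0.72 ± 0.11 (FDR 6.72e-05), while Kcna5 rose by 0.81 ± 0.25 (FDR 0.0192). The count was 14 with the covariate and 11 without the choroid-rich libraries, where Kcng3 and Kcnb2 were called under both and Kcna5 was not called in the latter (0.79, FDR 0.0527). The median log2 fold change of the 29 was -0.07 with vehicle and -0.31 with candesartan, against -0.01 and -0.00 over all genes.

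Averaged over the arms 7 of the 29 were called, 2 higher (Kcna5 at 0.61 and Kcng4 at 0.39) and 5 lower, led by Kcng3 at -0.81 and Kcna4 at -0.47. Beside them 15.8% of all genes were called, 2229 higher and 414 lower. Without the choroid-rich libraries, which leaves Sham + VH replicate 3 alone in its group, the median of the 29 was -0.19. Kcng3 was then -0.90 and Kcna4 -0.48. Candesartan in sham mice called 1, Kcnb2, higher by 0.50 ± 0.10 (FDR 0.0286), beside 1.5% of all genes (14 higher and 237 lower), and candesartan in injured mice called 0. Kcnb2 in sham mice was 0.52 (FDR 0.644, not called) with the covariate, and 0.46 without the choroid-rich libraries. Mean Kcnb2 levels were 7.38 CPM in both vehicle groups, 10.5 CPM with candesartan in sham mice and 6.20 CPM with candesartan after injury. None of the list was called in the thalamus, in the hypothalamus or at 29 dpi in comparisons within a region by edgeR.

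The KCNE genes encode small membrane proteins that can join voltage-gated potassium channels, and 3 of the 6 symbols listed were tested in the hippocampus at 3 dpi. Kcne1l rose with injury, from a mean of 4.05 CPM to 12.4 CPM with vehicle and from 4.01 CPM to 13.5 CPM with candesartan, by 1.71 ± 0.09 on the log2 scale in the average (FDR 5.5e-10). Without the choroid-rich libraries, which leaves Sham + VH replicate 3 alone in its group, the rise was 1.73. At 29 dpi the average was 0.65 ± 0.12 (FDR 0.00854). Kcne2, which is itself one of the choroid plexus markers used here, had a mean of 21.5 CPM in Sham + VH against 0.332 CPM after injury, and of 0.299 CPM in Sham + CD against 3.32 CPM after injury. The choroid plexus marker sums of TBI + CD had a median of 108 CPM and a maximum of 2753 CPM, in replicate 1. The part of that library in the higher TBI + CD mean was not tested.

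Ranked by Pearson's coefficient, the genes whose log2 CPM was most like that of Kcnh7 over the 16 hippocampal libraries at 3 dpi, among 14945 genes averaging 1 CPM or more, were Nrip1 (Pearson 0.905, Spearman 0.838), AK148422 (0.875, 0.765) and Ndst4 (0.868, 0.83). By Spearman's they ranked 7.5, 40 and 11, ties averaged. The lowest by Pearson's coefficient were Pigs (-0.831, -0.779), Morn2 (-0.822, -0.797) and Copz2 (-0.820, -0.806), which ranked 10, 3 and 2 from the bottom by Spearman's. Over the 12 group means of the 3 regions at 3 dpi, among 15195 genes, Dnajc13 (0.941, 0.804), Dgki (0.854, 0.783) and Ank2 (0.848, 0.678) had the highest Pearson coefficients, and by Spearman's they ranked 12.5, 19.5 and 147. These points share libraries, group structure and normalization, and the coefficients are a description.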

How the data were processed

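Per the labels and the study's methods, the authors made stranded poly(A) libraries, aligned paired-end reads to mm10 using MapSplice, obtained gene counts with HTSeq 0.9.1 and ran DESeq2 1.16.1. The deposited values are raw counts for 32594 symbols. The annotation, the use of strand and the rule for reads matching several genes are not given in the sources used here. Every column was assigned to a library from its label, and 0 were left unassigned. Duplicated libraries were looked for within groups and not found (144 pairs, chi-square per degree of freedom 2.75 to 51.4). Nothing in the labels says that each library is a separate mouse, so p-values measure the spread between libraries.

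The 16 libraries of each region at each time were modelled with edgeR 4.0.16 in R 4.3.3 (filterByExpr, TMM, 2-sided quasi-likelihood F test, Benjamini-Hochberg FDR over all genes tested), and a gene was called at FDR under 0.05 and absolute log2 fold change above 0.32. All 8 members passed the filter in every fit. Regions were compared in a fit of the 48 libraries of a time point, treated as independent. Printed CPM use TMM factors over those 48 libraries, whose relative scale differed from the 16-library factors by at most 2.29%. Log2 fold changes carry standard errors from the fit. Exon lengths, coordinates and sequences came from mm10 and GENCODE vM21. The test was checked on simulated counts.

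All 8 members are named in the text, with at most 2 other channel genes per direction and the 3 most and 3 least like Kcnh7. The members and the gene lists were chosen with earlier results of these data known. Alternatives were DESeq2 1.42.0, RLE factors, unfiltered genes, a threshold on the FDR only, fits restricted to the groups compared, a replicate block, a choroid plexus covariate and each library left out, with the 4 hippocampal libraries rich in choroid plexus markers left out together as an addition made after the data were seen (in other sets, those above 1000 CPM likewise).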

Additional observations from a re-analysis of the deposited data

Results flagged for a closer look

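In 14 of 192 groups of 4 library values, the highest or lowest library stood apart from the other 3 by Dixon's 95% criterion, where chance gives about 1 in 20. In the hippocampus at 3 dpi these were Sham + VH replicate 3, with the lowest Kcnh1 (64.9 CPM) and the highest Kcnh5 (3.51 CPM) of its group, and TBI + VH replicate 2, with the highest Kcnh3 (125.2 CPM). Sham + VH replicate 3 is the library of its group with few choroid plexus epithelium markers, 213 CPM against 4504 to 6978. In the thalamus at 3 dpi Kcnh2 was highest in Sham + CD replicate 3 (133.6 CPM) and TBI + CD replicate 4 (129.9 CPM), and Kcnh7 was lowest in TBI + CD replicate 1 (3.96 CPM). In the hypothalamus at 3 dpi Kcnh1 was lowest in Sham + VH replicate 4 (38.4 CPM) and Kcnh2 in TBI + VH replicate 2 (90.2 CPM). At 29 dpi the libraries were hippocampal TBI + CD replicate 1 for Kcnh1 (highest, 65.9 CPM) and TBI + VH replicate 2 for Kcnh6 (highest, 3.20 CPM). In the thalamus at 29 dpi Kcnh3 was highest in Sham + VH replicate 3 (11.3 CPM) and Sham + CD replicate 1 (4.13 CPM), and Kcnh4 in TBI + CD replicate 1 (2.82 CPM). Hypothalamic Kcnh6 was lowest in TBI + CD replicate 1 at 29 dpi (5.10 CPM).

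The injury effect on Kcnh4 at 3 dpi, averaged over the drug arms, differed between regions in edgeR's test of the difference: the hippocampus minus the thalamus gave a log2 difference of -0.96 (FDR 0.0032), and the hippocampus minus the hypothalamus -0.74 (FDR 0.0123). Without the 4 hippocampal libraries rich in choroid plexus genes these were -0.71 and -0.50. That fit leaves Sham + VH replicate 3 alone in its group, so the calls cannot be judged there.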

How the results depend on the processing

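Hippocampal Kcnh7, which chose the family, is left out of the counts of members here. At 3 dpi in the hippocampus the 2 called for injury with vehicle and the 2 called for TBI + CD against Sham + VH became 0 and 0 with the choroid plexus covariate. Fits without the hippocampal libraries rich in choroid plexus genes leave Sham + VH replicate 3 alone in its group, so their counts are not given here. The 2 called for injury averaged over the drug arms were again 2 with the covariate (Kcnh4 and Kcnh5) and 4 with the FDR alone. The 1 called for the injury difference of the hippocampus from the thalamus was 2 with the FDR alone. For candesartan in sham mice the 0 became 1 (Kcnh2) with DESeq2 and with the replicate block. For the interaction the calls over all genes went from 0 to 322 with DESeq2, 118 with no filter on low counts and 106 with the replicate block. With each library left out in turn the counts were 1 to 3 for injury with vehicle, 1 to 3 for injury with candesartan, 0 to 3 for TBI + CD against Sham + VH, 0 to 1 for candesartan in sham mice, and 1 to 2 for the difference between hippocampus and thalamus. At 29 dpi Kcnh7 for candesartan in sham hippocampus, 0.01, was -0.079 with the choroid plexus covariate and -0.20 without the choroid-rich libraries, and ran from -0.15 to 0.33 with 1 library left out, and TBI + CD against Sham + VH, -0.21, ran from -0.36 to 0.11, the latter without Sham + VH replicate 3. Its injury difference averaged over the arms, 0.09, was -0.082 without the choroid-rich libraries. Over all genes the 1796 calls for injury with vehicle were 620 with the covariate, and the 251 for candesartan in sham were 448 with DESeq2 and 0 with the covariate. RLE factors kept all 38 counts of members within 1.5 times, and the replicate block kept 37. The causes were not tested. Same-numbered libraries correlated at -0.62 to 0.72 in their deviations from the group means within a region, and at -0.30 to 0.57 between regions of the same group. No region and time had every pair above 0.1, so the numbers were not taken to pair the samples. Kcnh8 in the hippocampus, with 1 to 31 counts per library at 29 dpi, limits what can be seen of its changes. Coding length from a RefSeq protein table was not run.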
